A study of Sus scrofa with 6 samples.

Results

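The mitochondrial carrier family (SLC25) and the uncoupling proteins *UCP2* and *UCP3* were examined in longissimus dorsi, a muscle of the back, from 3 UCP1 KI pigs and 3 WT pigs. All pigs were sampled at 6 months of age, with 1 library per pig. The UCP1 KI pigs carried a knock-in of UCP1 that is specific to adipocytes, and the tissue sampled was muscle. The knock-in was made with CRISPR/Cas9, and WT pigs carried none. The labels and methods name no other allele and no treatment, while some of the study's captions speak of cold, and whether these pigs were exposed to it is not given there. The sources used here also give neither the promoter of the insert nor the sex, litter or founder of the pigs. Members were taken by symbol, as every pig Ensembl gene whose symbol begins with SLC25A and a number, plus *UCP2* and *UCP3*. The name table held 44 such identifiers, 42 of them had a row among the 30476 genes counted, and 37 were kept because at least 3 of the 6 libraries held 10 or more counts. All 37 also passed the filter of the test across genes, which kept 13402.

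Most carriers of this family sit in the inner membrane of the mitochondrion and exchange nucleotides, phosphate, acylcarnitines, amino acids, organic acids and cofactors between the cytosol and the matrix. In skeletal muscle they feed the respiratory chain and export the ATP that contraction uses. Uncoupling proteins belong to the same family. UCP1, the thermogenic member of brown fat, lets protons return to the matrix without making ATP, whereas UCP3 is known as the muscle form and UCP2 as a form found in many tissues, including immune cells. *UCP1* had no identifier under its symbol and was not analysed here, nor were *SLC25A6* and *SLC25A30*, whose identifiers had no row. *SLC25A37* had no identifier either, and the same was true of *SLC25A2*, *SLC25A18*, *SLC25A29*, *SLC25A51* and *SLC25A52*, so the substrate groups below are not complete.

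Total counts on genes ranged from 30220951 to 35066624 per library and every UCP1 KI library had fewer than any WT library. TMM factors, which correct for composition, were lowest for WT replicate 2 (0.781) and highest for UCP1 KI replicate 2 (1.18). Levels are given as CPM, counts per 1e6 counts of the library after scaling with these factors, and are not corrected for gene length, so that single genes are compared between pigs only, and sums or rankings of CPM over genes give long genes more weight. The muscle markers *ACTA1*, *CKM*, *DES* and *TNNT3* were counted in every library, while *MB*, *TTN* and the myosin heavy chain genes of the marker lists had no row under their symbols. Summed levels of 6 fibroblast markers were 421, 235 and 435 CPM in UCP1 KI pigs 1 to 3 and 805, 1187 and 742 CPM in WT pigs 1 to 3, and those of 5 red blood cell markers were 76.5, 11.6 and 73.6 CPM and 106, 108 and 181 CPM. Both sums were lower in every UCP1 KI pig, and 4 of the 6 fibroblast genes and 1 of the 4 red blood cell genes tested were past the limits given next. Adipocyte, leukocyte and endothelial sums overlapped between the groups, and 1 of 5 adipocyte genes (*LIPE*), 1 of 8 leukocyte genes (*CD3E*) and 1 of 4 endothelial genes (*TEK*) were past the limits, all higher in UCP1 KI pigs. The other 4 adipocyte genes tested had log2 fold changes below 0, from -1.26 for *ADIPOQ* to -0.80 for *CIDEC*, and none was past the limits. Over all genes tested 8.19% were past the limits, and 1 call among 4 to 8 marker genes cannot be told apart from that share. In bulk samples such as these, fewer cells of a type and less RNA per cell cannot be told apart. Where a gene is given with 6 values, the first 3 are UCP1 KI replicates 1 to 3 and the last 3 are WT replicates 1 to 3.

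Of the 37 carrier genes, 1 passed the limits that the study used, the glycine carrier *SLC25A38*, which was higher in UCP1 KI pigs. These limits are an unadjusted p under 0.05 and a log2 fold change (UCP1 KI against WT) above 0.5 in size, both computed here with the quasi-likelihood test of edgeR. The share of carriers called was 2.70%, while over all genes tested 8.19% were called in either direction and 3.84% were called as higher. With p-values of edgeR adjusted by Benjamini-Hochberg, 0 carriers and 0 of the genes tested were under 0.05, although 1100 genes, 1 carrier among them, had an unadjusted p under 0.05. DESeq2 on the same genes gave 127 genes with an adjusted p under 0.05, 0 of them carriers, and also 1 carrier with an unadjusted p under 0.05. The CPM values of the genotypes did not overlap for 2 carriers, *SLC25A38* and the citrate carrier *SLC25A1*, which is 5.41% of the family against 15.3% of all genes tested. The log2 fold change was above 0 for 25 carriers and below 0 for 12, with a median of 0.17 where the median over all genes tested was -0.02. The carrier median was 0.077 without WT replicate 2, 0.11 without WT replicate 1 and 0.41 with library size only, where that of all genes was 0.24. Leaving out 1 pig moved the log2 fold change by over 1.5 times or changed its sign for 22 of the 24 carriers described in full. The exceptions were *SLC25A38* and *SLC25A1*. Some of the 24 were added because their value turned on 1 pig, and values near 0 pass such a ratio easily. This count is therefore no share for the family.

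**Figure D1:**
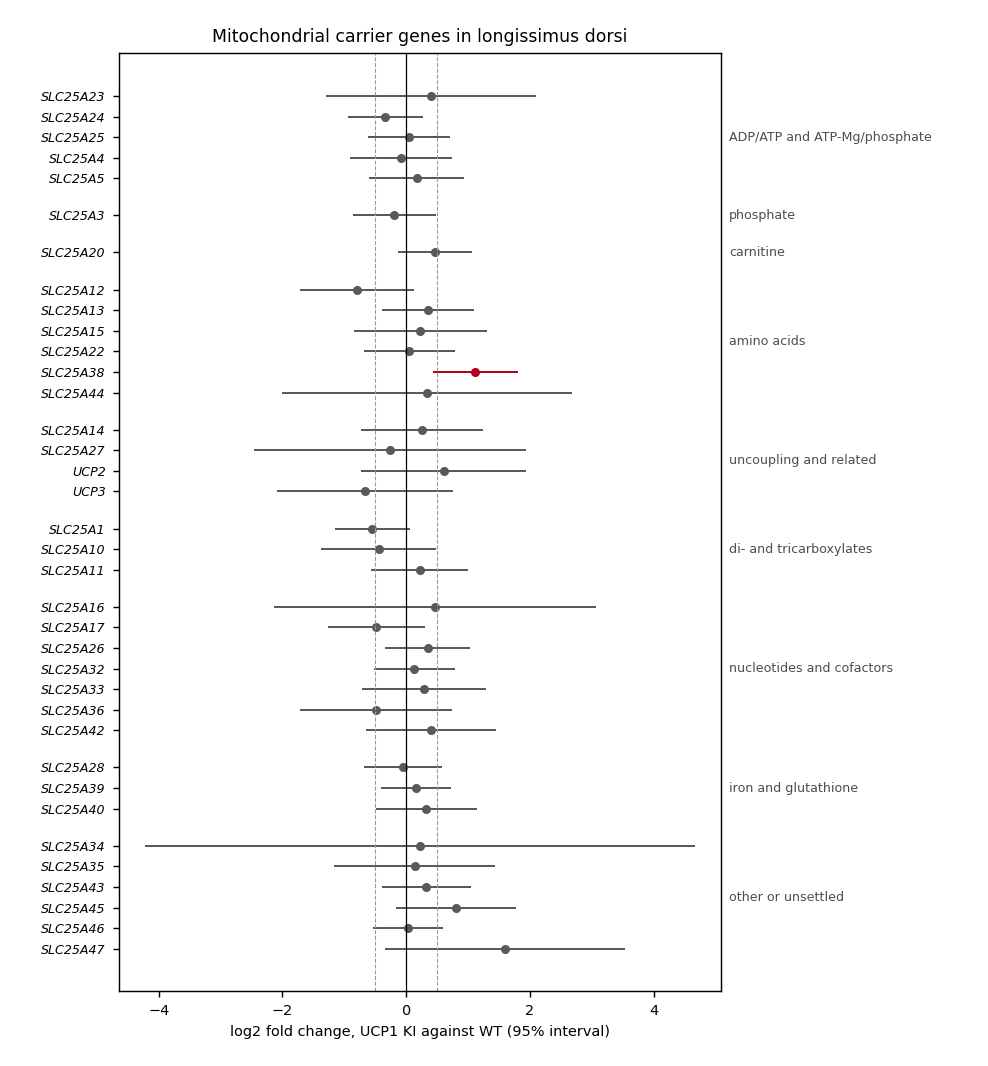
Log2 fold change of 36 of the 37 carrier genes, UCP1 KI against WT (x axis), with its 95% interval from edgeR, grouped by substrate (right). Dashed lines mark -0.5 and 0.5. The red point, *SLC25A38*, is past both limits, and each of the other 35 intervals includes 0.

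*SLC25A38* (ENSSSCG00000029708) lies at chromosome 13, 24030571 to 24043866 in the RefSeq annotation of Sscrofa11.1, the build that the submitters' processing notes name. Its protein imports glycine, a substrate of the first step of haem synthesis, and is best known from developing red blood cells. Levels were 7.63, 11.1 and 11.6 CPM in UCP1 KI pigs 1 to 3 and 4.05, 5.7 and 4.2 CPM in WT pigs 1 to 3. Every UCP1 KI pig was thus above every WT pig, the closest being UCP1 KI replicate 1 and WT replicate 2. The UCP1 KI mean of 10.1 ± 2.15 CPM (SD, n = 3) was 2.17 times the WT mean of 4.65 ± 0.909 CPM (SD, n = 3). Its log2 fold change of 1.12 (standard error 0.29, 95% interval 0.45 to 1.79) had an adjusted p of 0.583 (0.00504 before adjustment) in edgeR's quasi-likelihood test. With each pig left out in turn it lay between 1.0 and 1.29, and *SLC25A38* was past both limits in all 6 of these fits, with DESeq2, with the other scalings and filters and with the replicate block. Among the red blood cell markers, *HBB* was at 74.8, 11.3 and 72.4 CPM in UCP1 KI pigs and 103, 106 and 177 CPM in WT pigs, lower in every UCP1 KI pig, and *ALAS2*, the haem synthesis enzyme of red cell precursors, was at or below 2.04 CPM in all 6 libraries. The part of red blood cells and of other cell types in the level of *SLC25A38* was not tested.

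The other amino acid carriers included both exchangers of aspartate for glutamate, which belong to the malate-aspartate shuttle that brings reducing equivalents of cytosolic NADH into the mitochondrion. *SLC25A12* (aralar), the form of muscle and brain, was measured at 20.7, 11.5 and 28.3 CPM in UCP1 KI pigs 1 to 3 and at 33.1, 47.7 and 24.1 CPM in WT pigs 1 to 3. UCP1 KI replicates 1 and 2 were the lowest pigs, but replicate 3 of this genotype was above WT replicate 3. The log2 fold change of -0.79 (standard error 0.39, adjusted p = 0.634 from edgeR) missed the limits, with an unadjusted p of 0.0789, and passed them when UCP1 KI replicate 3 (-1.11) or WT replicate 3 (-1.0) was left out. It was -0.53 without UCP1 KI replicate 2, -0.50 without WT replicate 2 and -0.51 with library size only. *SLC25A13* (citrin), its close relative known mainly from liver, was at 49.7, 58.9 and 75.7 CPM and 32.4, 47.3 and 64.7 CPM, with a log2 fold change of 0.35 (95% interval -0.37 to 1.08) that lay in the range 0.13 to 0.63 with a pig left out, lowest without WT replicate 1 and highest without WT replicate 3. Within a pig, the ratio of *SLC25A12* to *SLC25A13* in CPM took the values 0.417, 0.196 and 0.374 for UCP1 KI replicates 1 to 3 against 1.02, 1.01 and 0.372 for WT replicates 1 to 3. WT replicate 3 lay among the UCP1 KI pigs for this ratio, which was chosen after the values were seen.

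*SLC25A44*, a carrier of branched-chain amino acids, varied more between pigs than between genotypes, with 2.75, 11.7 and 5.96 CPM in UCP1 KI pigs and 1.43, 13.9 and 0.901 CPM in WT pigs. WT replicate 2 was the highest of all 6 libraries and WT replicate 3 the lowest, a 15.4-fold range inside 1 genotype. The log2 fold change of 0.34 (standard error 1.0) changed sign when WT replicate 1, WT replicate 3 or UCP1 KI replicate 2 was left out, and passed the limits without WT replicate 2, at 2.54. The ornithine carrier *SLC25A15* and the glutamate carrier *SLC25A22* had log2 fold changes of 0.23 and 0.054, and both overlapped. Of the 6 amino acid carriers kept, 5 had a log2 fold change above 0. The limits were passed by 1 of them (16.7%), against 8.19% of all genes tested, and 6 genes are too few to tell these shares apart.

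*SLC25A1* (ENSSSCG00000010116, chromosome 14, 50974616 to 51002970) exports citrate to the cytosol, where it supplies acetyl-CoA for fatty acid synthesis. It was at 7.24, 5.97 and 7.84 CPM in UCP1 KI pigs 1 to 3 and 11.6, 10.7 and 8.51 CPM in WT pigs 1 to 3. Every UCP1 KI pig was below every WT pig, with a gap of less than 1 CPM between UCP1 KI replicate 3 and WT replicate 3 (p = 0.1 in a two-sided exact permutation test, which cannot give less with 3 pigs against 3). The means were 7.02 ± 0.953 CPM and 10.3 ± 1.58 CPM (SD, n = 3 each). For the log2 fold change of -0.55 (standard error 0.25), edgeR gave an adjusted p of 0.62 (0.0643 before adjustment). *SLC25A1* passed the limits in 1 of the 6 fits that left out a pig, that without WT replicate 3, at -0.66, and was at -0.30 with library size only. The fibroblast and red blood cell sums were also lower in every UCP1 KI pig, but neither had the order of *SLC25A1* over the 6 pigs. For the fibroblast sum only WT replicates 1 and 2 changed places. The red blood cell sum was highest in WT replicate 3, the lowest WT pig for *SLC25A1*. The part of these sums in the difference was not tested. The dicarboxylate carrier *SLC25A10* was at 8.6, 3.45 and 9.56 CPM and 8.41, 10.8 and 10.2 CPM, and the oxoglutarate carrier *SLC25A11*, the malate side of the malate-aspartate shuttle, at 12.6, 9.06 and 17.8 CPM and 13.7, 8.22 and 12 CPM. Both overlapped between the genotypes, with log2 fold changes of -0.44 and 0.22. That of *SLC25A11* turned to -0.056 without UCP1 KI replicate 3.

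**Figure D2:**
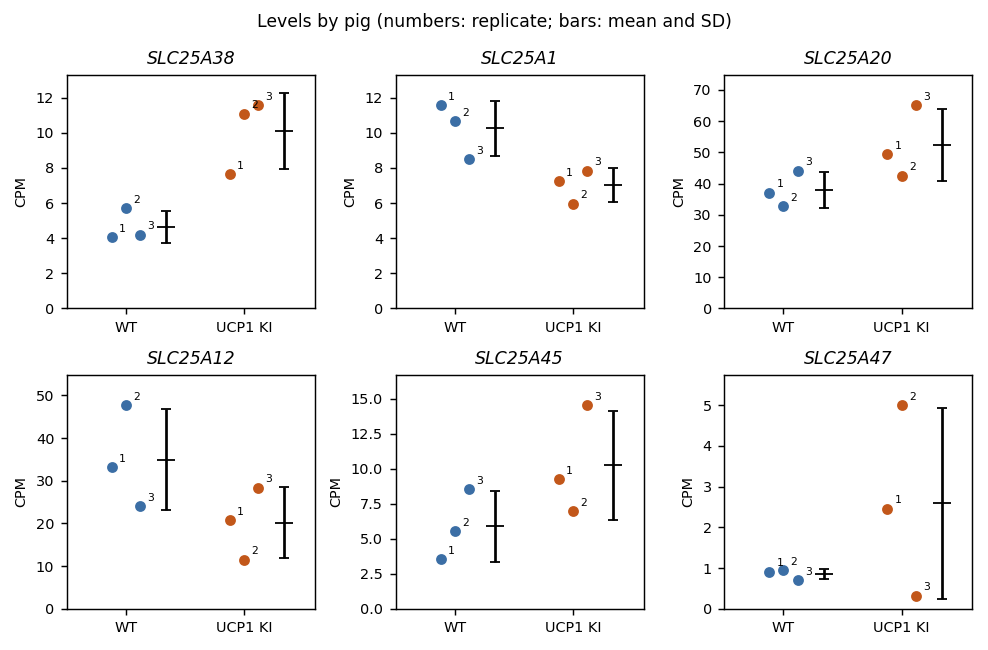
CPM (y axis, from 0) of 6 carriers in each WT pig (blue) and UCP1 KI pig (orange), with the replicate number beside each point and the group mean and SD as black bars. *SLC25A38* and *SLC25A1* separate the genotypes, and the other 4 overlap, *SLC25A47* because UCP1 KI replicate 3 is the lowest of the 6 libraries.

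*SLC25A20* (ENSSSCG00000011366, chromosome 13, 31523820 to 31553289), the carnitine/acylcarnitine carrier, brings acylcarnitines to the matrix for beta-oxidation and was the member of the carnitine group. Levels were 49.4, 42.5 and 65.1 CPM in UCP1 KI pigs 1 to 3 and 37, 32.8 and 44.1 CPM in WT pigs 1 to 3. Of the UCP1 KI pigs, replicates 1 and 3 were above all WT pigs and replicate 2 was below WT replicate 3. The means of 52.3 ± 11.6 CPM and 38 ± 5.72 CPM (SD, n = 3 each) gave a log2 fold change of 0.46 (95% interval -0.12 to 1.05, adjusted p = 0.654 from edgeR), and with a pig left out it lay in the range 0.28 to 0.59, past the limits in 0 of the 6 fits.

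The enzymes on either side of this carrier were measured in the same pigs. *CPT1B*, the muscle form of the enzyme that makes long-chain acylcarnitines, was at 134, 119 and 129 CPM in UCP1 KI pigs and 251, 92.4 and 141 CPM in WT pigs, and *CPT2*, which turns them back to acyl-CoA, was at 11.2, 25.9 and 24.2 CPM and 33.7, 4.31 and 19.5 CPM. WT replicate 1 was the highest and WT replicate 2 the lowest library for both. *CRAT*, carnitine acetyltransferase, was at 582, 419.8 and 614 CPM and 191, 371 and 602 CPM, where WT replicate 1 was the lowest. *CROT*, the peroxisomal octanoyltransferase, had the largest log2 fold change of the group, 1.14 (adjusted p = 0.63 from edgeR), which followed UCP1 KI replicate 1 at 15.5 CPM where the other 5 pigs were between 2.19 and 4.99 CPM. Of 7 shuttle genes listed, 6 were tested and 0 passed the limits (8.19% of all genes did), 3 with a log2 fold change above 0 and 3 below.

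The ADP/ATP carrier *SLC25A4* (ENSSSCG00000015790, chromosome 15, 46193498 to 46197989), the form of heart and skeletal muscle, exports newly made ATP. It was measured at 889, 464 and 664 CPM in UCP1 KI pigs 1 to 3 and 688, 536 and 904 CPM in WT pigs 1 to 3. The highest and the lowest pig were WT replicate 3 and UCP1 KI replicate 2, with the other 4 mixed between them. Its log2 fold change was -0.077, with a 95% interval of -0.88 to 0.73. It turned to 0.13 without UCP1 KI replicate 2, 0.14 without WT replicate 3 and 0.13 with library size only. The form of dividing and other cells, *SLC25A5*, was at 18.5, 13.2 and 9.75 CPM and 10.5, 16.1 and 10.2 CPM, a log2 fold change of 0.17 (95% interval -0.58 to 0.92). *SLC25A6*, a near-identical paralog, had no row, and how reads that match both genes were counted is not given in the sources used here, so the value of *SLC25A5* is uncertain.

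*SLC25A3* (ENSSSCG00000000886, chromosome 5, 85284405 to 85292336), which imports the phosphate for ATP synthesis and also copper, was at 570.3, 399 and 514 CPM in UCP1 KI pigs 1 to 3 and 486, 523 and 687 CPM in WT pigs 1 to 3. Here too WT replicate 3 was highest and UCP1 KI replicate 2 lowest, within a 1.72-fold range. The log2 fold change of -0.19 had a 95% interval of -0.85 to 0.46, and turned to 0.051 with library size only, a scaling that raised the median of all genes from -0.02 to 0.24. The carriers of ATP-Mg for phosphate, which set the adenine nucleotide pool of the matrix and are regulated by calcium, were *SLC25A23*, *SLC25A24* and *SLC25A25*. *SLC25A25* was at 44.6, 53.6 and 60.2 CPM and 35.1, 55.7 and 62.5 CPM and *SLC25A24* at 11, 14 and 10.1 CPM and 17.8, 13.2 and 13.5 CPM. Neither separated the genotypes, and for *SLC25A23* UCP1 KI replicates 2 and 1, at 13.5 and 1.42 CPM, enclosed all WT pigs.

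*UCP3* (ENSSSCG00000014834, chromosome 9, 8378023 to 8389452) spread 6.04-fold over the 6 pigs, at 212, 91.3 and 377 CPM in UCP1 KI pigs 1 to 3 and 148, 379 and 552 CPM in WT pigs 1 to 3. WT replicates 3 and 2 were the highest, followed by UCP1 KI replicates 3 and 1, then by WT replicate 1, with UCP1 KI replicate 2 the lowest. The same order held for the summed fast fibre genes *TNNT3*, *TNNI2*, *TNNC2*, *ATP2A1* and *ACTN3*, at 46064, 14334 and 46163 CPM in UCP1 KI pigs 1 to 3 and 28503, 72246 and 74355 CPM in WT pigs 1 to 3. None of these fast fibre genes had this order by itself, and UCP1 KI replicates 3 and 1 were nearly tied in the sum. No other carrier had this order, and 49 of the 13402 genes tested (0.366%) did. This order was compared after the values were seen. *UCP3* had a log2 fold change of -0.67 (standard error 0.61, 95% interval -2.07 to 0.74, adjusted p = 0.778 from edgeR), and the part of fibre type in it was not tested. Leaving out UCP1 KI replicate 3 gave -1.23 and leaving out UCP1 KI replicate 2 gave -0.30, and the values were -1.05 and -0.22 when WT replicate 1 or WT replicate 3 was dropped.

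*UCP2* (ENSSSCG00000014833) lies 13470 bases from *UCP3* on chromosome 9 and followed another order, at 6.5, 9.79 and 2.44 CPM in UCP1 KI pigs 1 to 3 and 4.47, 5.81 and 2.0 CPM in WT pigs 1 to 3. UCP1 KI replicate 2, the lowest pig for *UCP3*, was the highest for *UCP2*, and WT replicate 3, the highest for *UCP3*, was the lowest for *UCP2*. Summed levels of 8 leukocyte markers, *PTPRC* and *CSF1R* among them, were 56.2, 88.7 and 25.8 CPM in UCP1 KI pigs and 34, 57.2 and 24.7 CPM in WT pigs. UCP1 KI replicate 2 was also the highest and WT replicate 3 the lowest for this sum. The same held for the summed endothelial markers, at 508 CPM in UCP1 KI replicate 2 and 251 CPM in WT replicate 3. The part of these cell types in the level of *UCP2* was not tested. The log2 fold change of *UCP2* was 0.61 (95% interval -0.71 to 1.92, adjusted p = 0.783 from edgeR), with genotypes that overlapped, and it was 0.12 without UCP1 KI replicate 2, 0.28 without WT replicate 3, 0.94 without WT replicate 2 and 0.98 without UCP1 KI replicate 3. The related carriers *SLC25A14* and *SLC25A27*, known mainly from brain, had log2 fold changes of 0.26 and -0.26, and *SLC25A27* ranged from 0.30 CPM in WT replicate 3 to 6.56 CPM in WT replicate 1. Thus 0 of the 4 uncoupling and related genes passed the limits (8.19% of all genes did), 2 with a log2 fold change above 0 and 2 below.

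**Figure D3:**
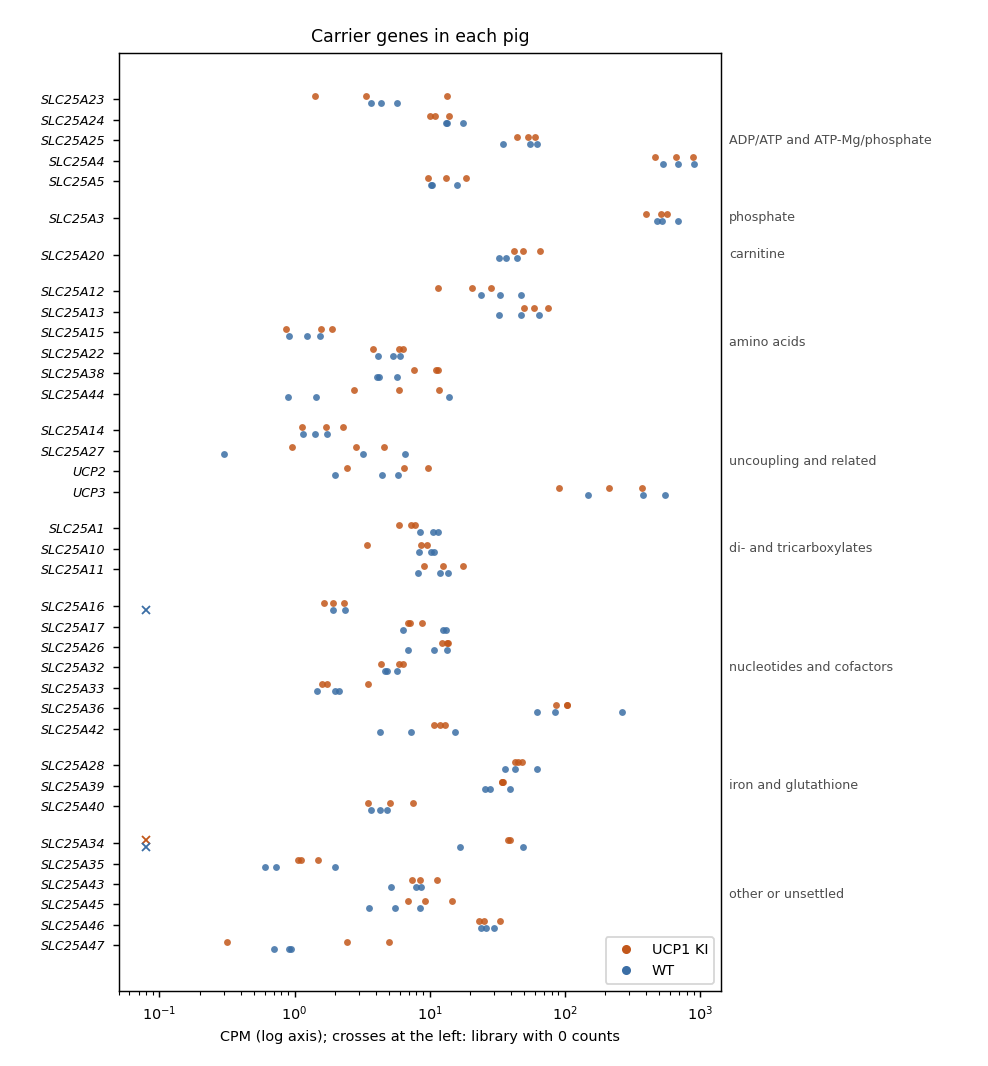
CPM of 36 of the 37 carrier genes (log x axis) in each UCP1 KI pig (orange) and WT pig (blue), 1 point per pig, grouped by substrate (right). Crosses stand for the 3 values at 0 counts, of *SLC25A16* in WT replicate 1 and of *SLC25A34* in UCP1 KI replicate 3 and WT replicate 2. The genotypes are interleaved for nearly all genes.

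Among the 8 carriers of nucleotides and cofactors, 0 passed the limits (8.19% of all genes did). Log2 fold changes ran from -0.49 for *SLC25A36* to 0.40 for *SLC25A42*. This range leaves out *SLC25A16* (0.46, standard error 1.11), which had 0 counts in WT replicate 1. *SLC25A36*, a carrier of pyrimidine nucleotides, was at 104, 104 and 86.3 CPM in UCP1 KI pigs and 267, 62.1 and 84.1 CPM in WT pigs. WT replicate 1 stood above the other 5 pigs, and without it the log2 fold change turned from -0.49 to 0.42. Its order over the pigs was that of the summed slow fibre genes, which 41 of the 13402 genes tested (0.306%) shared. This was also compared after the values were seen, and the part of fibre type in the level of *SLC25A36* was not tested. The orders of 7 marker sums were compared with those of the 37 carriers, and the other 5 sums matched 0 carriers. The peroxisomal carrier *SLC25A17* (-0.48) and the coenzyme A carrier *SLC25A42* (0.40) also turned on WT replicate 1, and passed the limits without it, at -0.76 and 1.03. Without WT replicate 2 they were at -0.30 and 0.063. *SLC25A26*, which imports the methyl donor S-adenosylmethionine, was at 13.4, 13.8 and 12.3 CPM and 6.97, 10.7 and 13.4 CPM, and the folate and flavin carrier *SLC25A32* had a log2 fold change of 0.13. *SLC25A33*, another pyrimidine nucleotide carrier, had a log2 fold change of 0.28.

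The iron carrier *SLC25A28* (mitoferrin 2) and the glutathione carrier *SLC25A39* spread 1.74-fold and 1.53-fold over the 6 pigs. *SLC25A28* was at 45.2, 48.6 and 43 CPM in the knock-in group and 36.1, 62.9 and 42.6 CPM in the WT group, with a log2 fold change of -0.049 (95% interval -0.66 to 0.56). *SLC25A39* was at 34.7, 34.4 and 34.5 CPM and 28.2, 25.6 and 39.3 CPM, with UCP1 KI pigs that differed by less than 1 CPM and lay inside the range of the WT pigs. Its relative *SLC25A40* had a log2 fold change of 0.33, and all 3 genes overlapped.

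The 6 carriers of other or unsettled substrate had fitted log2 fold changes above 0, and 0 of the 6 passed the limits (8.19% of all genes did). The signs of *SLC25A34* and *SLC25A46* changed with the pigs used. *SLC25A45* was at 9.25, 6.96 and 14.5 CPM in UCP1 KI pigs 1 to 3 and 3.56, 5.55 and 8.54 CPM in WT pigs 1 to 3. UCP1 KI replicates 3 and 1 were the highest pigs, and replicate 2 lay below WT replicate 3. Its log2 fold change of 0.80 (unadjusted p 0.0888, adjusted p = 0.643 from edgeR) passed the limits without WT replicate 3 (1.18), with library size only (1.09) and with the replicate block (0.82), and was lower without UCP1 KI replicate 3 (0.47) or WT replicate 1 (0.53). *SLC25A47*, known mainly from liver, had the largest log2 fold change of the family, 1.6 (standard error 0.83, adjusted p = 0.645 from edgeR), from reads that numbered 76, 178 and 12 for the UCP1 KI group and 33, 26 and 21 for the WT group. Replicates 1 and 2 of the UCP1 KI pigs were above all WT pigs and replicate 3 was below them, and the gene passed the limits without it (2.11) and with library size only (1.86). The value was 0.70 without UCP1 KI replicate 2 and 1.03 with the replicate block, below that of *SLC25A38* in both fits. *SLC25A46*, which acts in the outer membrane on mitochondrial shape, spread 1.44-fold, at 23, 25.5 and 33.2 CPM and 26.3, 24 and 30.2 CPM. The remaining genes of the group, *SLC25A35* and *SLC25A43*, were at log2 fold changes of 0.14 and 0.33.

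*SLC25A34*, an orphan carrier of muscle and other tissues, had counts of 1226, 1348 and 0 for UCP1 KI replicates 1 to 3 and of 1796, 0 and 503 for WT replicates 1 to 3. Both genotypes thus held a pig with 0 counts beside pigs with over 500, and the fitted log2 fold change of 0.22 (standard error 1.91, 95% interval -4.21 to 4.65) fixes no direction, although it is among those counted as above 0. A count of 0 allows up to 0.0795 CPM in UCP1 KI replicate 3 and 0.11 CPM in WT replicate 2, taking 3 counts as the limit, for counting error only. *SLC25A16*, a carrier linked to coenzyme A, showed 0 counts in WT replicate 1 and 58 to 73 in the other 5 pigs. Among the 10660 genes with a median of at least 50 counts, 40 (0.375%) had a library at 0, and these 2 carriers were among them. How the reads were counted is not given in the sources used here, and its part in these values was not tested.

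Carriers together took 0.152% to 0.251% of all counts, and their summed CPM was 2241, 1553 and 2143 in UCP1 KI pigs 1 to 3 and 2016, 1953 and 2694 in WT pigs 1 to 3. *SLC25A4*, *SLC25A3* and *UCP3* made up between 61.5% and 79.6% of this sum, with the lowest share in UCP1 KI replicate 2. The sum overlapped between the genotypes (two-sided exact permutation test, p = 0.6). For the 34 other carriers the sums were 570.0, 598 and 588 CPM and 694, 515 and 549.8 CPM. The highest pig exceeded the lowest by a median of 2.18 times over the 35 carriers with no library at 0, against 2.34 times over the 12946 such genes of all those tested, and by more than 10 times for *SLC25A27*, *SLC25A44* and *SLC25A47*.

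The summed CPM of the carriers was lowest in UCP1 KI replicate 2, the lowest pig for *SLC25A4*, *SLC25A3* and *UCP3*, while the unweighted median over the carriers was not, unlike that of the nuclear genes of the respiratory chain and ATP synthase. Deviations from each gene's mean over the 6 pigs, on the log2(CPM + 1) scale, had medians over the 37 carriers of 0.0855, 0.0805 and 0.0845 in UCP1 KI pigs 1 to 3 and -0.0367, -0.0714 and 0.0471 in WT pigs 1 to 3. Over 64 respiratory chain genes the medians were 0.161, -0.583 and -0.0745 in UCP1 KI pigs 1 to 3 and 0.171, 0.0996 and 0.240 in WT pigs 1 to 3. UCP1 KI replicate 2 was thus the lowest for the respiratory chain, while for the carriers it lay within 0.01 of the other pigs of its genotype, all 3 above the WT pigs. Of the individual carriers, it was the lowest library for 8, among them *SLC25A4*, *SLC25A3*, *UCP3* and *SLC25A12*, and the highest for 8, among them *UCP2*, *SLC25A22* and *SLC25A26*. The median log2 fold change of the respiratory chain genes was -0.27, with 58 of 64 below 0 and 4 past the limits, all 4 lower, beside the carrier median of 0.17. That is 6.25% of these genes past the limits, against 8.19% of all genes tested, of which 6526 had a log2 fold change above 0 and 6876 below. The difference between these medians was not tested.

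**Figure D4:**
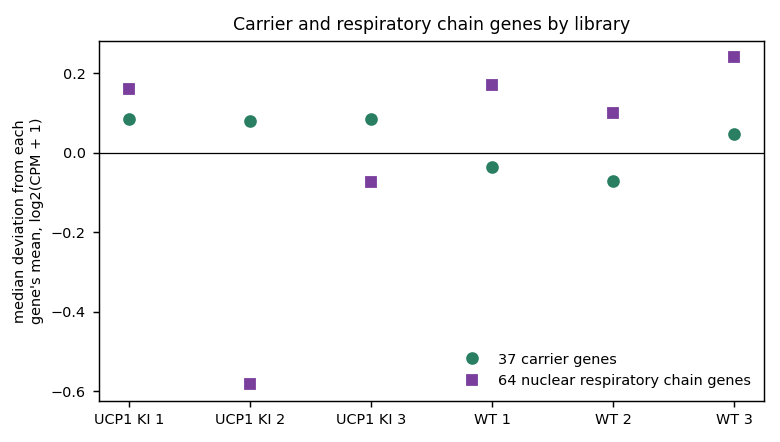
Median deviation of 37 carrier genes (green circles) and 64 nuclear respiratory chain genes (purple squares) from each gene's mean over the 6 pigs, in log2(CPM + 1), by library. The respiratory chain median of UCP1 KI replicate 2 is -0.583, while the carrier medians stay between -0.0714 and 0.0855.

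Other genes that work with the carriers were taken from a list of 26, of which 22 were tested and 0 passed the limits (8.19% of all genes did), 12 with a log2 fold change above 0 and 10 below. *VDAC3*, a channel of the outer membrane through which metabolites reach the carriers, was the 1 gene of the list whose genotypes did not overlap (15.3% of all genes did not), at 335, 448 and 322 CPM for UCP1 KI and 276, 187 and 291 CPM for WT. The log2 fold change of 0.55 had an adjusted p of 0.645 in edgeR (0.0913 before adjustment). The main channel *VDAC1* was at 480.3, 301 and 425 CPM and 364, 333 and 482 CPM, and the pyruvate carrier subunit *MPC2* at 138, 144 and 139.8 CPM and 155, 123 and 154 CPM. Neither gene separated the genotypes. For the enzymes of the malate-aspartate shuttle, the log2 fold changes were -0.11 for *GOT1*, 0.34 for *GOT2*, -0.42 for *MDH1* and 0.095 for *MDH2*. *CKMT2*, the mitochondrial creatine kinase that takes up ATP delivered by *SLC25A4*, was at 972, 279.9 and 544 CPM and 768, 418 and 689.8 CPM, and like *SLC25A4* it was lowest in UCP1 KI replicate 2. Among the regulators of mitochondrial genes, *PPARGC1A* was at 37, 9.31 and 14.5 CPM and 18.7, 18.4 and 40.2 CPM and *ESRRA* at 19.2, 24 and 24.7 CPM and 12.9, 9.2 and 22.1 CPM. Log2 fold changes of the 7 regulators lay between -0.38 and 0.62, and each overlapped between the genotypes.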

How the data were processed

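RNA of longissimus dorsi from 3 UCP1 KI and 3 WT pigs was sequenced as paired-end mRNA libraries. The authors trimmed reads with Trimmomatic 0.36, mapped them with HISAT2 2.0 and computed expression with StringTie 1.3.3b, and the submitters' processing notes name the build Sscrofa11.1. The deposited table holds raw counts by the authors, 1 row per Ensembl gene, not normalized, and 0 columns were left unused. Annotation release, counting tool and strand setting are not given in the sources used here, so reads of overlapping or antisense genes may be shared.

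All genes were fitted with edgeR 4.0.16 (R 4.3.3; filterByExpr, TMM factors, quasi-likelihood F test with condition as the only term, two-sided, Benjamini-Hochberg adjustment), after a check on simulated counts. Standard errors are the log2 fold change over the square root of F, and 95% intervals use the same degrees of freedom. For single values, an exact permutation test over the 20 ways of splitting the pigs was run on log2(CPM + 1). DESeq2 1.42.0, other scalings and filters, the replicate number as a block and each pig left out were alternatives. Nothing in the sources says whether the pigs were littermates. The p-values set the difference between genotypes against the spread within them and take the pigs as independent. A difference between families could therefore not be told apart from one of genotype.

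Carriers given in full were those past both limits, those without overlap, the highest of each substrate group by mean CPM and a list by role, and others whose value turned on 1 pig were added after the values were seen, as were the partner genes named. The values of 1 carrier are not reported here, though it is in the counts and medians. The carriers, groups, partner and marker lists were chosen with earlier results of these data known.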

Additional observations from a re-analysis of the deposited data

How the results depend on the processing

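Among the 37 carriers, *SLC25A38* was past both limits under every alternative that kept these limits, and the number past them was 1 with DESeq2, median-of-ratios factors, every gene with any count, 10 or more counts in at least 3 libraries or in every library, and no fold change limit. The number was 3 with library size only, 2 with the replicate block, and 1 to 4 with a pig left out (4 without WT replicate 3, 3 without UCP1 KI replicate 3 or WT replicate 1, and 2 without WT replicate 2). The calls over all genes moved too, from 1097 of 13402 to 1541 of 13864 without WT replicate 3, 1151 of 13822 without UCP1 KI replicate 3, 1075 of 13705 without WT replicate 1 and 718 of 13829 without WT replicate 2. They were 678 of 13782 without UCP1 KI replicate 2 and 929 of 13793 without UCP1 KI replicate 1, each with 1 carrier past the limits. With library size only they were 1124 of 13402. The number of carriers was 0 at an adjusted p under 0.05. The median log2 fold change of the carriers, 0.17, was 0.41 with library size only, where that of all genes was 0.24, and 0.077 to 0.16 with a pig left out, lowest without WT replicate 2. Of 311 values for 24 named carriers under these alternatives, 20 changed sign and 11 moved past the limits. Those that changed sign were *SLC25A3* (0.051), *SLC25A4* (0.13) and *SLC25A28* (0.25) with library size only and *SLC25A34* (-0.26) with the replicate block. The rest changed sign with a pig left out, where the values were -0.33 to 0.14 for *SLC25A4*, -0.089 to 0.41 for *SLC25A5*, -0.056 to 0.41 for *SLC25A11*, -0.17 to 0.22 for *SLC25A25*, -0.22 to 0.21 for *SLC25A28*, -0.36 to 1.64 for *SLC25A34*, -0.84 to 0.42 for *SLC25A36*, -0.34 to 2.54 for *SLC25A44* and -0.14 to 0.13 for *SLC25A46*. The cause was not tested.

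Deviations of same-numbered pigs from their group means correlated at 0.0038, 0.094 and 0.28 over 13402 genes, so the numbers were not taken to pair the pigs, and not every pig correlated best with its own number. The block moved the number of carriers past the limits from 1 to 2 and that of all genes from 1097 to 1114. Depth limits the carriers with few counts, and no difference was tested for *SLC25A21*, *SLC25A31*, *SLC25A41*, *SLC25A48* or *SLC25A53*.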

Other observations

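The 5 carriers with a row that were left out for low counts were near the limit of the depth. *SLC25A31*, the ADP/ATP carrier of testis, had 0 counts in all 6 libraries, which allows up to 0.0795 to 0.11 CPM per library. *SLC25A21*, the oxodicarboxylate carrier, had counts of 7, 13 and 9 for UCP1 KI replicates 1 to 3 and of 0, 0 and 15 for WT replicates 1 to 3. In the same order, the counts were 3, 21 and 9 and 8, 6 and 8 for *SLC25A41*, 0, 8 and 0 and 5, 0 and 10 for *SLC25A48*, and 0, 10 and 6 and 0, 2 and 0 for *SLC25A53*.

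In the annotation of Sscrofa11.1, *SLC25A41* lies 1932 bases from *SLC25A23* on chromosome 2 and *SLC25A5* lies 12523 bases from *SLC25A43* on chromosome X. UCP1 KI replicate 2 was the highest library for both *SLC25A23* and *SLC25A41*, with 480 and 21 counts. Beside *SLC25A34*, the gene *TMEM82* at 898 bases had 26 and 20 counts in UCP1 KI replicate 3 and WT replicate 2, the libraries where *SLC25A34* had 0, and between 14 and 39 in the other 4. *PLEKHM2*, at 1868 bases, had 9431 and 2889 counts in these libraries, which are its highest and lowest values.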
